A study of Mus musculus with 6 samples.

Results

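The genes described here are 38 cholesterol and fatty acid synthesis genes of the mouse, made up of 18 enzymes of the sterol route, 10 enzymes that make, elongate or desaturate fatty acids, and 10 regulators and transport genes. A gene was taken if the gene name on the array equalled a symbol of this list, with Msmo1 found under its older name Sc4mol, and all 38 were present among 27962 gene names. They were measured in mouse embryonic stem (ES) cells, pluripotent cells of the early embryo kept in culture, whose genetic background was F1 from 129 and C57BL/6. One group received an siRNA against BRG1 and the other a scrambled control siRNA, each for 48 h, and each group was read on 3 single-colour Agilent arrays from 500 ng of total RNA. BRG1, encoded by Smarca4, is the ATPase of the SWI/SNF complexes that move nucleosomes, and the comparison asks which genes depend on it. The siRNA lowers BRG1 without removing it, and the control cells were given an siRNA too.

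Cells build cholesterol from acetyl-CoA through mevalonate, isoprenoids, squalene and lanosterol, and build fatty acids from the same precursor through malonyl-CoA. When membrane sterol is low, SCAP escorts the transcription factors SREBF1 and SREBF2 from the endoplasmic reticulum to the Golgi, where they are cut and freed to switch on genes of both routes; INSIG proteins hold the complex back when sterol is plentiful. The oxysterol receptors NR1H2 and NR1H3 switch on sterol export through ABCA1.

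Levels are log2 values of the processed signal, set relative to the array's own 75th percentile, so 0 marks that percentile. Levels of different probes are not compared with each other. A change is the mean of the BRG1 siRNA arrays minus the mean of the control siRNA arrays on this log2 scale, given with its standard error (SE), and a gene passed the test when its p from limma, adjusted over all 17759 genes tested, was under 0.05. Nothing says that the replicates were separate cultures, so the p-values refer to array-to-array spread that could be technical only. The number of arrays limits the precision, and in bulk RNA fewer cells with a transcript and less of it per cell cannot be told apart.

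Smarca4 itself averaged 3.70 ± 0.09 in BRG1 siRNA cells and 4.30 ± 0.07 in control cells (SD, n = 3 each), and its 3 probes stood at 65.8%, 54.7% and 66.2% of the control level. The median change of all genes tested was -0.04. Of the ES cell markers, 11 of 11 on the array were well above background on all 6 arrays, with a summed linear level of 481 to 500.2 (75th percentile = 1) in BRG1 siRNA cells and 477.9 to 483.8 in control cells. The summed level of 12 fibroblast markers was 6.68 to 7.46 in BRG1 siRNA cells and 8.50 to 9.02 in control cells. That of 10 adipocyte markers was 1.41 to 1.55 in BRG1 siRNA cells and 1.05 to 1.25 in control cells, and that of 12 visceral endoderm markers 58.6 to 70.5 in BRG1 siRNA cells and 53.4 to 58.2 in control cells. Each sum weighs a gene by the signal of its probe, so bright probes carry it. The endoderm sum was mostly Apoe, which averaged 5.98 in BRG1 siRNA cells and 5.80 in control cells (log2). Amn, the next highest tested, averaged -1.88 and -1.67. Adipoq averaged -1.21 in BRG1 siRNA cells and -3.39 in control cells. In the ES cell sum Dppa5 (7.94 and 7.91) and Zfp42 (6.89 and 6.87) were the brightest. Lep and Cfd, and Afp and Apoa1 among the endoderm genes, were not well above background on any array. Of 11 ES cell markers tested, 2 were lower and 3 higher, and of 10 fibroblast markers 5 were lower and 1 higher. Of 7 adipocyte markers tested only Adipoq passed, and it was higher, and of 8 visceral endoderm markers 1 was lower. Over all genes tested 13.4% were lower and 9.87% higher, and the part of the markers in the lipid gene changes was not tested. Control arrays 1, 2 and 3 and BRG1 siRNA array 1 lay on 1 slide, and BRG1 siRNA arrays 2 and 3 on another, so values with the slide as a block are given beside the counts. The second slide held no control array, so the change in that fit is BRG1 siRNA array 1 against the control arrays, and it gives no support beyond that array.

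All 38 lipid genes were well above background on all 6 arrays and all were tested. In BRG1 siRNA cells 15 fell, 4 rose and 19 did not pass, where the background over all genes tested was 13.4% lower and 9.87% higher. The change was below 0 for 31 of the 38, against 57.1% of all genes tested, and the groups did not overlap for 23 that were lower and 4 that were higher, against 25.1% and 18.9% of all genes. The falls ran from 1.15-fold to 1.50-fold, so they were small. With the slide as a block, 3 lipid genes were lower (5.15% of all genes) and 2 higher (2.69% of all genes): Sc4mol, Scd2 and Fads1, and Abca1 and Nr1h2.

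**Figure D1:**
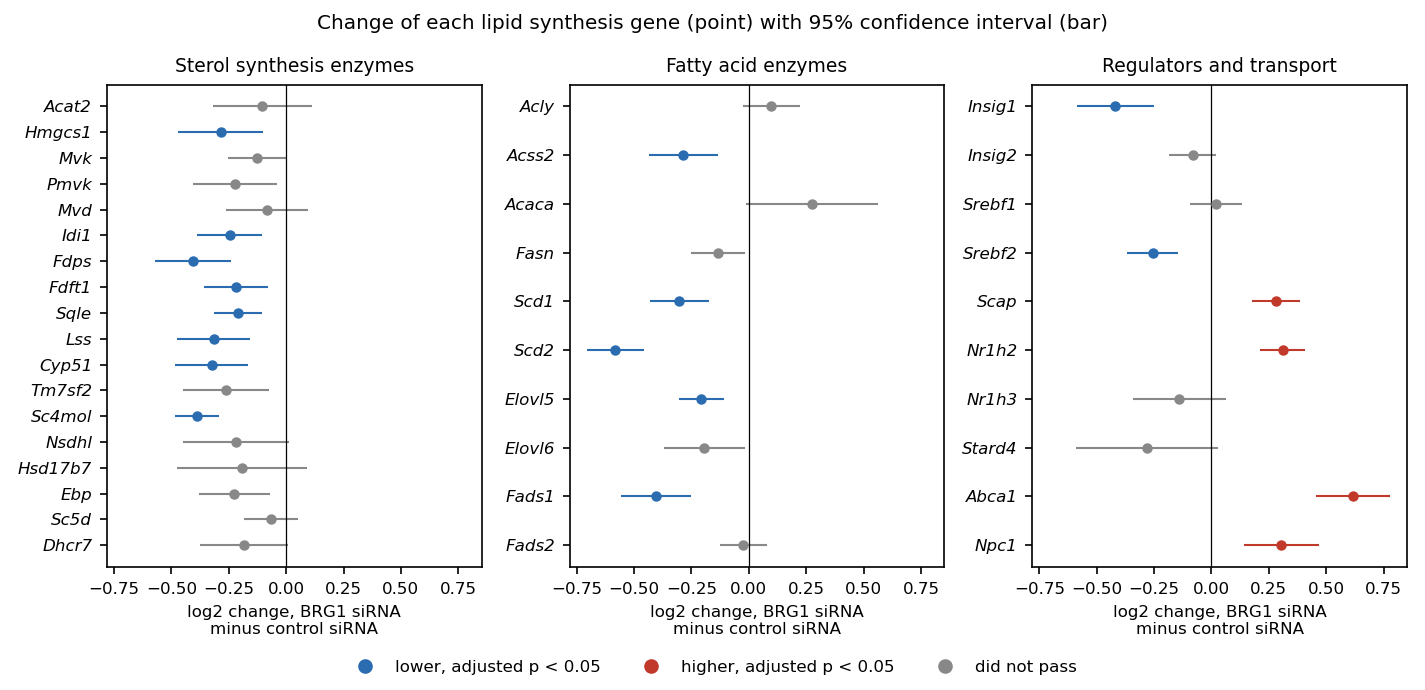
Change of each of the 38 genes, BRG1 siRNA minus control siRNA in log2 units (x axis), with the 95% confidence interval as a bar, in 3 panels by role and in pathway order down the page. The 18 sterol enzymes all lie left of 0, 8 of them past the test, whereas the regulators and transport genes lie on both sides.

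The windows upstream of 4 of these genes are shown because they hold the letters searched for. RefSeq promoter windows of the GRCm38.p6 assembly, from 250 bases before to 50 bases after the start, were at hand for 30 of the 38 genes. Of the 15 genes that fell, 9 had a window. All 9 held TCACNCCAC, a form of the sterol regulatory element, or ATTGG, the reverse of the CCAAT box bound by NF-Y. Hmgcs1, the one with TCACNCCAC, and the 3 others with the largest falls among the 9 were chosen for display after their values were seen. Scd2, Fdps and Fads1 fell more than Cyp51 but had no window. The 250 bases before the start are printed 5′ to 3′ on the gene's strand, with matches to TCACNCCAC and to ATTGG or CCAAT in capitals. The Hmgcs1 window lies at chr13:119690101-119690350 (plus strand), that of Insig1 at chr5:28071162-28071411 (plus strand), that of Msmo1 (Sc4mol) at chr8:64733579-64733828 (minus strand) and that of Cyp51 at chr5:4104698-4104947 (minus strand).
Hmgcs1: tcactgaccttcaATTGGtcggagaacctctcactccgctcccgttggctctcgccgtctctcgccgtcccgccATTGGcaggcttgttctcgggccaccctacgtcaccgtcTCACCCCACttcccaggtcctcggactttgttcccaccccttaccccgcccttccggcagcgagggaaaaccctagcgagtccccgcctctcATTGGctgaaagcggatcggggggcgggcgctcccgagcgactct
Insig1: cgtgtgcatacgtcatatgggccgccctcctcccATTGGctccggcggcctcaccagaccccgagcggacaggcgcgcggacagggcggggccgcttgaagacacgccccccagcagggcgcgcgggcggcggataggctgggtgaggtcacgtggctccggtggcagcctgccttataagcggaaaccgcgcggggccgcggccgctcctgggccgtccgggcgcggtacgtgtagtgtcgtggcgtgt
Msmo1: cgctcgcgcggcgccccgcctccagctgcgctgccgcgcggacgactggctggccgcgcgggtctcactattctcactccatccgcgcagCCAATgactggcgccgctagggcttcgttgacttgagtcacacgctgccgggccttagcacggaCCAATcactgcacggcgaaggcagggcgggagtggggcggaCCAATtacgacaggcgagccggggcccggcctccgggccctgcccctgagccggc
Cyp51: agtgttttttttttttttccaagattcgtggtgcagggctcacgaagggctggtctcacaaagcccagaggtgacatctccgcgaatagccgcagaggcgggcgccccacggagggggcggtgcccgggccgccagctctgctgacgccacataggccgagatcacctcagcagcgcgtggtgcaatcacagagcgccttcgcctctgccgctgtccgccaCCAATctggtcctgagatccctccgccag
The Hmgcs1 window holds its TCACNCCAC match 137 bases before the start and CCAAT boxes 237, 176 and 45 bases before it. Msmo1 has CCAAT boxes 160, 96 and 55 bases before the start, Insig1 has 1 at 216 bases and Cyp51 has 1 at 29 bases. Counting both strands and the whole 300-base windows, ATTGG was found in 14 of 15 sterol enzyme genes with a window, in 4 of 7 fatty acid genes and in 4 of 8 regulators, against 41.1% of all genes in the table. The GC box GGGCGG, bound by SP1, was found in 14 of 15, 3 of 7 and 6 of 8, against 38.2% of all genes. The E-box CACGTG was found in 3 of 15, 1 of 7 and 3 of 8, against 8.09% of all genes. TCACNCCAC was found in Hmgcs1 alone among the 30, against 1.44% of all genes. Other forms of the sterol regulatory element were not searched for, so a window without this match may still hold one. Mean GC content was 60.2%, 60.4% and 61.4% in the windows of sterol enzymes, fatty acid enzymes and regulators, against 53.8% for all windows. A match describes the letters, not binding. By gene, ATTGG was found in 7 of 7 enzyme genes that fell and in 11 of 15 enzyme genes that did not pass, and this difference was not tested.

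The 18 sterol enzymes are the group in which every change had the same sign at the probe used, although the other Mvk probe changed by 0.15. Of the 18 enzymes, 8 fell in BRG1 siRNA cells and 10 did not pass. Each of the 18 was below its own control mean on all 3 BRG1 siRNA arrays, although under scaling on spike-in probes 6 of the 18 changes were above 0. For 12 of the 18 every BRG1 siRNA array lay under every control array, against 25.1% of all genes tested. The median change was -0.22, with array medians of -0.22, -0.23 and -0.28 on BRG1 siRNA arrays 1, 2 and 3 relative to the control mean.

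The mevalonate and isoprenoid steps come first. Hmgcs1, which joins acetyl units into HMG-CoA, read 4.30, 4.32 and 4.50 on the BRG1 siRNA arrays, against 4.66, 4.57 and 4.74 on the control arrays, a change of -0.29 ± 0.08 (limma adjusted p = 0.0451). Idi1, which isomerises the isoprenoid unit, read 3.63, 3.59 and 3.46 in BRG1 siRNA cells and 3.80, 3.85 and 3.78 in control cells, a change of -0.25 ± 0.06 (limma adjusted p = 0.0323). Fdps, which makes farnesyl diphosphate, read 3.89, 3.87 and 4.06 in BRG1 siRNA cells and 4.33, 4.30 and 4.41 in control cells, a change of -0.41 ± 0.07 (limma adjusted p = 0.0113). In each of these genes the highest BRG1 siRNA array stayed under the lowest control array, and Fdps had the largest fall of the sterol enzymes. The Idi1 probe is placed on chr2:53701852-53701911 (mm7, minus strand), whereas the RefSeq window of Idi1 is on chromosome 13; a near-identical copy of the gene could share its signal, and the other Idi1 probe, also placed on chromosome 2, changed by -0.07. The remaining enzymes of these steps did not pass: Acat2, which joins acetyl-CoA units, changed by -0.10, the kinases Mvk and Pmvk by -0.13 and -0.22, and the decarboxylase Mvd by -0.08. Mvk and Pmvk nevertheless had no overlap between groups at the probe used. At the other Mvk probe the BRG1 siRNA arrays were instead higher without overlap, a change of 0.15 that did not pass.

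All 4 enzymes of the squalene and lanosterol steps fell. Fdft1, squalene synthase, read 2.62, 2.72 and 2.55 in BRG1 siRNA cells and 2.81, 2.87 and 2.87 in control cells, a change of -0.22 ± 0.06 (limma adjusted p = 0.0414). Sqle, squalene epoxidase and a rate-setting step, read 2.80, 2.78 and 2.70 in BRG1 siRNA cells and 2.97, 2.98 and 2.96 in control cells, a change of -0.21 ± 0.04 (limma adjusted p = 0.0217). Lss, which closes the ring to lanosterol, read 1.19, 1.28 and 1.11 in BRG1 siRNA cells and 1.48, 1.59 and 1.45 in control cells, a change of -0.31 ± 0.06 (limma adjusted p = 0.0219). All 3 genes were thus lower without overlap, and the control arrays of Sqle lay within a narrow range. Cyp51, lanosterol demethylase, read 0.17, 0.15 and 0.04 in BRG1 siRNA cells and 0.37, 0.54 and 0.43 in control cells, a change of -0.32 ± 0.06 (limma adjusted p = 0.0202). Its 3 probes, of which the one used lies at chr5:4089242-4089301 (mm7, minus strand), all passed the test on their own, with changes of -0.32, -0.22 and -0.39.

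The steps after lanosterol gave the clearest single sterol gene. Sc4mol, the methylsterol monooxygenase now named Msmo1, read 3.98, 4.03 and 3.98 in BRG1 siRNA cells and 4.38, 4.41 and 4.37 in control cells, a fall of 1.31-fold (-0.39 ± 0.04, limma adjusted p = 0.00299). The gap between the groups was several times the spread within either, and the probe lies at chr8:63138214-63138273 (mm7, minus strand). With the slide as a block, which leaves BRG1 siRNA array 1 alone in the contrast, its change was -0.41 (limma adjusted p = 0.0337). Tm7sf2, a sterol reductase, read -0.66, -0.76 and -0.78 in BRG1 siRNA cells and -0.52, -0.33 and -0.56 in control cells, a change of -0.26 ± 0.08 (limma adjusted p = 0.0567). Ebp, the sterol isomerase, read 3.83, 3.86 and 4.0 in BRG1 siRNA cells and 4.14, 4.06 and 4.17 in control cells, a change of -0.23 ± 0.06 (limma adjusted p = 0.0506). Both missed the threshold narrowly although their groups did not overlap. Nsdhl and Hsd17b7, which with Sc4mol remove methyl groups from the ring, changed by -0.22 and -0.19, Sc5d by -0.07 and Dhcr7, which makes cholesterol from its last precursor, by -0.18; none passed, and the groups overlapped in all 4. The count of 8 was 3, 4 and 10 without BRG1 siRNA array 1, 2 or 3, and 3, 2 and 1 without control array 1, 2 or 3. In the limma fits under median scaling and under spike-in scaling it was 0, and the median change under spike-in scaling was -0.02, against 0.16 for all genes. No call held on slide 1 alone, where the change comes from BRG1 siRNA array 1.

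**Figure D2:**
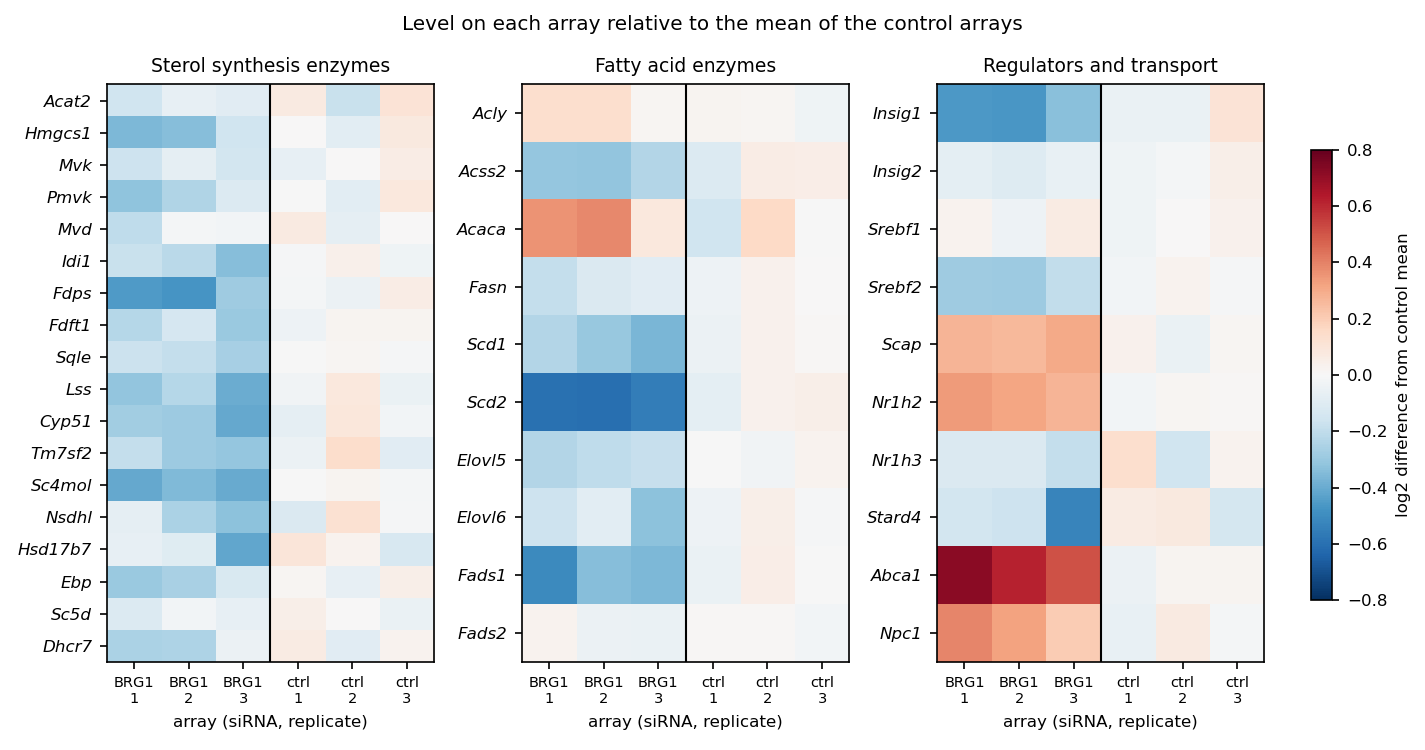
Level of each gene on each array minus the mean of its 3 control arrays (colour, log2 units), with the BRG1 siRNA arrays left of the control siRNA arrays in each panel. The sterol enzymes are blue, that is lower, on all 3 BRG1 siRNA arrays, while Scd2 and Abca1 carry the deepest blue and red.

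Of the fatty acid enzymes, the desaturases Scd1, Scd2 and Fads1, the elongase Elovl5 and the acetyl-CoA synthetase Acss2 fell in BRG1 siRNA cells. The desaturase Fads2, the elongase Elovl6, and Acly, Acaca and Fasn did not pass. Of the 10 enzymes 5 fell and 5 did not pass, 8 changes were below 0, 7 were lower without overlap, and the median change was -0.20. Over all genes tested 13.4% were lower, 57.1% had a change below 0 and 25.1% were lower without overlap.

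Scd2, a stearoyl-CoA desaturase that makes monounsaturated fatty acids and the largest fall among the 38 genes, read 4.16, 4.15 and 4.20 in BRG1 siRNA cells and 4.67, 4.78 and 4.80 in control cells, a fall of 1.50-fold (-0.58 ± 0.05, limma adjusted p = 0.00234). The BRG1 siRNA arrays lay close together and far below the lowest control array, and 4.56% of all tested genes had a lower change. Its probe lies at chr19:44200407-44200466 (mm7, plus strand). Scd1, the related desaturase best known from liver and fat, read -0.11, -0.18 and -0.25 in BRG1 siRNA cells and 0.07, 0.16 and 0.13 in control cells, a change of -0.30 ± 0.05 (limma adjusted p = 0.0129). The Scd genes are close relatives, and whether their probes share signal was not tested. Fads1, a desaturase of polyunsaturated fatty acids, read -0.53, -0.37 and -0.38 in BRG1 siRNA cells and -0.07, 0.03 and -0.02 in control cells, a change of -0.40 ± 0.06 (limma adjusted p = 0.00916). Fads2, the partner of Fads1 in the same route and its neighbour on chromosome 19, changed by only -0.02 ± 0.04, with a 95% confidence interval of -0.13 to 0.08. With the slide as a block the changes of Scd2 and Fads1, from BRG1 siRNA array 1 alone, were -0.59 and -0.51 (limma adjusted p = 0.0306 for each).

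Elovl5, an elongase of polyunsaturated fatty acids, read 2.64, 2.67 and 2.69 in BRG1 siRNA cells and 2.87, 2.85 and 2.90 in control cells, a change of -0.21 ± 0.04 (limma adjusted p = 0.0178). Acss2, which makes acetyl-CoA from acetate, read -2.49, -2.49 and -2.41 in BRG1 siRNA cells and -2.29, -2.12 and -2.13 in control cells, a change of -0.29 ± 0.06 (limma adjusted p = 0.0248). Both fell without overlap, though the other 2 tested Acss2 probes changed by -0.09 and -0.75 and did not pass. Elovl6, which elongates saturated fatty acids, read 1.87, 1.96 and 1.72 in BRG1 siRNA cells and 2.00, 2.09 and 2.04 in control cells, a change of -0.19 ± 0.07 (limma adjusted p = 0.107).

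Fasn, the fatty acid synthase, read 6.24, 6.32 and 6.35 in BRG1 siRNA cells and 6.40, 6.47 and 6.44 in control cells, a change of -0.13 ± 0.05 (limma adjusted p = 0.0949). Acaca, the acetyl-CoA carboxylase that commits carbon to fatty acids, read -0.15, -0.12 and -0.42 in BRG1 siRNA cells and -0.66, -0.34 and -0.51 in control cells, a change of 0.27 ± 0.12 (limma adjusted p = 0.145). Acaca thus lay above 0 with overlapping groups, and its 4 probes ranged from -0.08 to 0.33 with none past the test. Acly, which makes acetyl-CoA from citrate, changed by 0.10 ± 0.05. The count of 5 was 3, 2 and 5 without BRG1 siRNA array 1, 2 or 3, and 4, 2 and 2 without control array 1, 2 or 3. It was 1 under median and under spike-in scaling, Scd2 in both. No call held on slide 1 alone, where the change comes from BRG1 siRNA array 1.

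**Figure D3:**
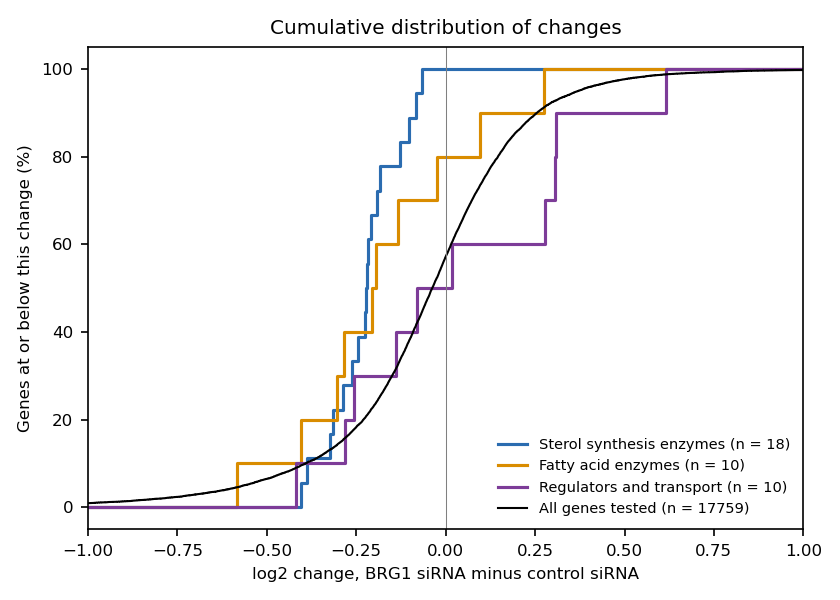
Cumulative share of genes (y axis, %) at or below a given log2 change (x axis), for the 18 sterol enzymes, the 10 fatty acid enzymes, the 10 regulators and transport genes and all 17759 genes tested. The line of the sterol enzymes reaches 100% left of 0, that of the fatty acid enzymes lies mostly left of the line for all genes, and that of the regulators crosses it.

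The regulators and transport genes moved both ways. In BRG1 siRNA cells the sterol sensor Insig1 and, at the probe used only, the factor Srebf2 fell. The exporter Abca1, the oxysterol receptor Nr1h2, the lysosomal transporter Npc1 and the escort Scap rose. The other 4 of the 10 did not pass, and the median change was -0.03, near the -0.04 of all genes. Of the 10, 4 were lower and 4 higher without overlap between groups, against 25.1% and 18.9% of all genes tested.

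Insig1, itself a gene that SREBF factors switch on, read -1.19, -1.20 and -1.07 in BRG1 siRNA cells and -0.79, -0.79 and -0.62 in control cells, a fall of 1.34-fold (-0.42 ± 0.07, limma adjusted p = 0.0111). Both its probes passed, at -0.42 and -0.32, and the groups did not overlap. Insig2, the related retention protein, changed by -0.08 ± 0.04. Srebf2, the factor that chiefly drives sterol genes, read 3.83, 3.82 and 3.91 in BRG1 siRNA cells and 4.09, 4.14 and 4.10 in control cells, a change of -0.26 ± 0.04 (limma adjusted p = 0.0138). The other 3 Srebf2 probes changed by 0.21, -0.05 and 0.18 without passing. At the first of these the groups did not overlap in the opposite direction. It read 1.72, 1.79 and 1.58 in BRG1 siRNA cells and 1.54, 1.50 and 1.42 in control cells. The fall thus rests on the probe at chr15:82289660-82289719 (mm7, plus strand), and the mean over the 4 probes changed by 0.02. Srebf1, which chiefly drives fatty acid genes, read 3.65, 3.59 and 3.70 in BRG1 siRNA cells and 3.59, 3.63 and 3.66 in control cells. Its change of 0.02 ± 0.05 had a 95% confidence interval of -0.10 to 0.13, and the groups overlapped.

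Abca1, which exports cholesterol to lipoproteins, read 0.82, 0.71 and 0.60 in BRG1 siRNA cells and 0.05, 0.12 and 0.12 in control cells, a rise of 1.53-fold (0.62 ± 0.07, limma adjusted p = 0.00359). This was the largest rise among the 38 genes, and 98.7% of all tested genes had a lower change. Its only probe lies at chr4:53044891-53044950 (mm7, minus strand). Nr1h2, an oxysterol receptor that switches on Abca1, read 1.61, 1.59 and 1.54 in BRG1 siRNA cells and 1.25, 1.29 and 1.28 in control cells, a change of 0.31 ± 0.04 (limma adjusted p = 0.00567). Nr1h3, the second oxysterol receptor, read -2.76, -2.76 and -2.84 in BRG1 siRNA cells and -2.52, -2.81 and -2.62 in control cells, a change of -0.14 ± 0.08 (limma adjusted p = 0.272). The receptors thus differed in that Nr1h2 rose and Nr1h3 did not pass, and the difference between them was not tested. With the slide as a block the changes of Abca1 and Nr1h2, from BRG1 siRNA array 1 alone, were 0.72 and 0.34 (limma adjusted p = 0.0243 and 0.0409).

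Scap read 3.57, 3.55 and 3.60 in BRG1 siRNA cells and 3.33, 3.24 and 3.31 in control cells, a change of 0.28 ± 0.04 (limma adjusted p = 0.00908). Npc1, which moves cholesterol out of lysosomes, read -1.10, -1.17 and -1.29 in BRG1 siRNA cells and -1.55, -1.42 and -1.51 in control cells, a change of 0.30 ± 0.07 (limma adjusted p = 0.0261). Both rose without overlap. Stard4, a carrier of sterol between membranes, read 0.64, 0.62 and 0.25 in BRG1 siRNA cells and 0.85, 0.86 and 0.64 in control cells, a change of -0.28 ± 0.13 (limma adjusted p = 0.164), with BRG1 siRNA array 3 far below the others. The other 2 Stard4 probes did pass, at -0.51 and -0.41 (limma adjusted p = 0.00591 and 0.00448 over all probes). The count of 6 was 4, 3 and 6 without BRG1 siRNA array 1, 2 or 3, and 5, 4 and 4 without control array 1, 2 or 3. It was 1 under median scaling, and no call held on slide 1 alone, where the change comes from BRG1 siRNA array 1.

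Probe by probe, 68 of the 73 probes of these genes were tested, of which 20 were lower and 4 higher, against 11% and 8.6% of all 26262 tested probes. Among sterol enzymes 33 of 34 tested probes were below 0, among fatty acid enzymes 13 of 17, and among regulators 10 of 17. The share of all tested probes below 0 was not counted, and that of all genes was 57.1%. Probes of the same gene are not independent of each other. For 19 genes several probes were tested. Their probes had the same sign in 16 of these genes and mixed signs in Mvk, Acaca and Srebf2. For Hmgcs1 the other probes changed by -0.52 and -0.01, neither past the test, and no Hmgcs1 probe passed when p was adjusted over all probes. The fall of Fdps was seen at both its probes, -0.41 and -0.31.

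**Figure D4:**
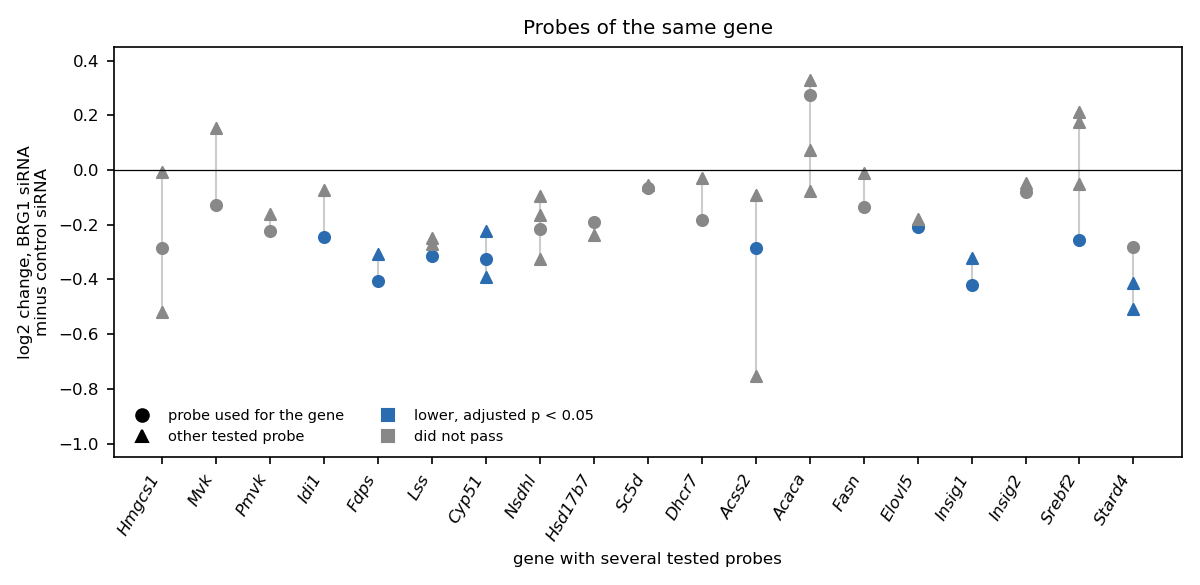
Change at each tested probe (y axis, log2, BRG1 siRNA minus control siRNA) for the 19 genes with several tested probes (x axis), with the probe used for the gene as a circle and the other probes as triangles. Probes of Cyp51, Fdps and Insig1 all passed, those of Srebf2 lie on both sides of 0, and the 2 other probes of Stard4 lie below the one used.

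Further genes of the same routes were counted from lists that did not hold the 38. Each is given at the probe used for the gene, and other probes of these genes are not given here. Of 7 other genes of sterol and isoprenoid metabolism tested, 2 were lower and 1 higher, against 13.4% and 9.87% of all genes tested. Soat1, which esterifies cholesterol for storage, read 0.95, 1.03 and 1.41 in BRG1 siRNA cells and 1.83, 1.77 and 1.92 in control cells, a change of -0.72 ± 0.13 (limma adjusted p = 0.0150). Soat2, its relative of liver and gut, read -3.28, -3.11 and -3.15 in BRG1 siRNA cells and -3.70, -3.55 and -3.40 in control cells, a change of 0.37 ± 0.09 (limma adjusted p = 0.0375). Aacs, which makes acetoacetyl-CoA in the cytosol, changed by -0.34 ± 0.04 (limma adjusted p = 0.00417). At the probes used the esterification genes thus moved in opposite directions, both without overlap between groups. Soat1 has 4 probes on the array and Soat2 has 1.

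Of 25 other genes of fatty acid metabolism tested, 6 were lower and 2 higher, against 13.4% and 9.87% of all genes tested. Mid1ip1, which promotes the assembly of acetyl-CoA carboxylase, read 1.86, 1.79 and 1.92 in BRG1 siRNA cells and 2.73, 2.76 and 2.80 in control cells, a fall of 1.87-fold (-0.91 ± 0.05, limma adjusted p = 0.00101). Fads3, another member of the Fads cluster, fell by 0.65 on the log2 scale, Ptpla (now Hacd1), a dehydratase of elongation, changed by -0.42, and Elovl4, an elongase of very long fatty acids, by -0.37, and all passed the test. Within the Fads cluster Fads1 and Fads3 therefore fell and Fads2 did not pass.

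Of 14 other regulators tested, 3 were lower and 1 higher, against 13.4% and 9.87% of all genes tested. Abcg1, a sterol exporter that the oxysterol receptors also switch on, read -0.37, -0.39 and -0.21 in BRG1 siRNA cells and 0.36, 0.30 and 0.40 in control cells, a fall of 1.60-fold (-0.67 ± 0.06, limma adjusted p = 0.00271). Its direction was opposite to that of Abca1. Rxra, the partner receptor of NR1H2 and NR1H3, changed by -0.43 ± 0.05 (limma adjusted p = 0.00387). Pgrmc1, a haem-binding partner of cytochrome P450 enzymes, changed by -0.28 ± 0.04 (limma adjusted p = 0.00521), and Mlxipl, a carbohydrate-responsive activator of fatty acid genes, by 0.29 ± 0.04 (limma adjusted p = 0.00787).

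Relative to the median of all genes, the median change was -0.18 for the sterol enzymes, -0.16 for the fatty acid enzymes and 0.01 for the regulators and transport genes. On the same relative scale, with the slide as a block, the 3 medians were -0.15, -0.15 and 0.04.

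**Figure D5:**
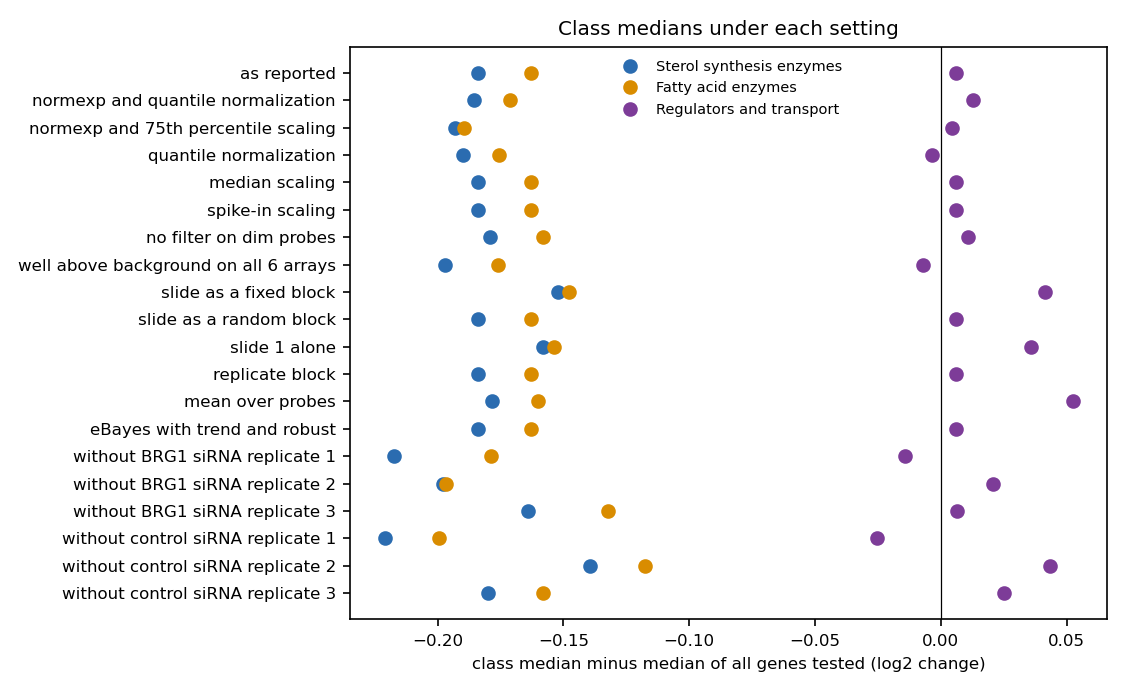
Median log2 change of each class minus the median of all genes tested (x axis) under each processing setting (y axis, with the reported setting on top). The sterol and fatty acid medians lie left of 0 in every setting drawn, and that of the regulators lies near 0 on either side. Median and spike-in scaling shift all genes of an array alike, and the replicate block leaves the changes as they are. These settings therefore could not move the points. Without the subtraction the spike-in medians of sterol and fatty acid enzymes were -0.023 and -0.0017.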

How the data were processed

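Total RNA of 6 samples was read on single-colour Agilent arrays. Deposited were the scanner files with linear intensity per spot, which the authors obtained with Agilent Feature Extraction 9.5.3.1 per the file headers (9.5 per the submitters' processing notes). The processed signal is background-subtracted within each array and not normalized between arrays, and the deposited value table held the same intensities (largest difference 0). Probe coordinates are in mm7 per the file headers.

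Processed signals were log2-transformed and the 75th percentile over an array's non-control spots was subtracted. Arrays held 45018 spots, of which 60.9% to 75.3% were well above background. The 1639 control spots and outlier spots (387 on at least 1 array) were left out, saturated spots were kept, and spots of a probe were averaged. A gene was represented by its probe with the highest mean level and tested if all arrays of 1 group or of both had that probe well above background. Groups were compared with limma 3.58.1 in R 4.3.3 (lmFit and eBayes, two-sided, Benjamini-Hochberg adjustment, threshold 0.05), and the method was tested on simulated data. Names were updated through RefSeq, by accession for 35 genes and by symbol for 3.

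The members, the other lists and the tests were chosen with earlier results of these data known. Per-array values are given for every member past the test, for the 2 others of each class with the largest change, and for Scd1, Fasn, Srebf1, Srebf2, Sqle and Cyp51. Of each further list up to 4 genes past the test with the largest change are named. A few pathway genes were taken out of these lists after values were seen and are not reported here, so the lists are incomplete and their counts carry no weight. Alternatives were other background corrections, scalings, filters and probe summaries, slide and replicate blocks, slide 1 alone, and each array left out in turn.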

Additional observations from a re-analysis of the deposited data

How the results depend on the processing

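Over the array 4139 genes passed the test. The counts of called genes over the array, and of called sterol enzymes, fatty acid enzymes and regulators (8, 5 and 6 as reported), were 1734, 0, 1 and 1 under median scaling, 1392, 1, 2 and 2 with the slide as a fixed block, and 59, 0, 0 and 0 on slide 1 alone. In both slide settings the change comes from BRG1 siRNA array 1 alone, and on slide 1 alone that array is assumed to vary like the controls. Without a filter on dim probes they were 1740, 2, 2 and 4, over 27961 genes. With spike-in scaling they were 3987, 0, 1 and 4, of which over the array 634 were lower and 3353 higher, against 2387 and 1752 as reported. Median scaling gave 901 lower and 833 higher, and quantile normalization 2171 and 2075. Leaving out each array in turn gave 1641 to 4413 genes over the array, 1 to 10 sterol enzymes, 2 to 5 fatty acid enzymes and 3 to 6 regulators, and medians of -0.24 to -0.22, -0.23 to -0.19 and -0.05 to -0.01 for the 3 classes. With the replicate number as a block the counts were 1938, 3, 2 and 4. Deviations from the group mean correlated at -0.31, 0.11 and -0.02 between same-numbered arrays. Between arrays with unlike numbers the correlations ran from -0.34 to 0.34. Deviations within a group sum to 0 and so depend on each other, and these values cannot decide whether the numbers pair the arrays. Under spike-in scaling the medians of sterol and fatty acid enzymes were -0.023 and -0.0017. The median of the regulators was 0.0095 under normexp with quantile normalization, 0.021 under median scaling, 0.17 when scaled on spike-ins and 0.019 when probes were averaged.

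Single genes that changed sign did so without passing the test. Under spike-in scaling these were Acat2 (0.10), Dhcr7 (0.016), Elovl6 (0.0045), Fads2 (0.17), Fasn (0.065), Hsd17b7 (0.0077), Insig2 (0.12), Mvd (0.12), Mvk (0.071), Nr1h3 (0.058) and Sc5d (0.13). Fads2 was at 0.028 under median scaling, and at 0.027 with the slide as a block and on slide 1 alone. Averaged over probes, Mvk was at 0.013 and Srebf2 at 0.019, and Srebf1 ran from -0.0057 to 0.047 with each array left out in turn. Sc4mol, Scd2, Fads1, Scap, Nr1h2 and Abca1 kept their calls with each array left out in turn, and Scd2 and Abca1 lost theirs only on slide 1 alone. The causes were not tested. All 38 probes used were well above background, yet some values moved under normexp with 75th percentile scaling. There Hmgcs1 and Fdft1 lost their calls (limma adjusted p = 0.0596 and 0.0562), and Nsdhl was at -0.03, against -0.22 as reported. The probe of a gene was chosen anew under each normalization, and the part of this choice in the shifts was not tested.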
